A study of Mus musculus with 6 samples.

Results

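The collagens of the mouse sciatic nerve were followed gene by gene through the cells that make the layers of the nerve, just after birth and in the adult. They were taken as every gene whose symbol is Col, a number, the letter a and a number, which gave 44 of the 41605 genes listed in each of the 6 libraries. By class, 11 are fibrillar, 8 belong to basement membranes (6 of type IV and 2 multiplexins), 9 are FACITs, 10 form other networks (6 of beaded filaments, 3 hexagonal and 1 of anchoring fibrils), and 6 are of other kinds, 4 of them transmembrane. Membership rests on the symbol alone and uses no measured value.

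Collagens are triple helices of polypeptide chains that are hydroxylated in the endoplasmic reticulum, secreted, trimmed and crosslinked outside the cell. Fibrillar collagens form the cables that give tissue its strength, FACITs sit on the surface of those fibrils, type IV collagens form the sheets of basement membranes, and type VI and type VIII collagens form finer networks close to cells. In a peripheral nerve, fibrils of type I and type III fill the endoneurium and the epineurium, and each Schwann cell, each vessel and each layer of the perineurium is wrapped in basement membrane.

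The data are single-cell RNA counts by 10x Chromium 3′ chemistry from sciatic nerves without injury, taken on day 1 after birth (P1) or from adults on day 60 (P60), with 3 separate cell suspensions per age. All mice were P0Cre-/+:ReYFP Tg/+:βAct-DsRed Tg/+ on C57bl/6J, in which DsRed is driven by the β-actin promoter and Cre switches on eYFP in the Schwann lineage. Each suspension pooled male and female mice, and DsRed+ cells were sorted. At P1 part of the cells positive for both reporters was sorted away, so the share of Schwann cells was set by the sort and is not compared.

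Cells were clustered with all collagens left out of the genes used, and clusters were named from marker genes that include no collagen, as endoneurial-like, perineurial-like, epineurial-like, Schwann-like, endothelial-like, mural-like and immune-like; the suffix is dropped in what follows. Counts of unique molecular identifiers (UMIs) were summed over the cells of a class in a library and are given as counts per 1e6 UMIs of that sum (CPM). A 3′ count is not a level per length, so genes are compared with each other only as a ratio whose change is read. More expressing cells and more RNA per cell cannot be told apart in such a sum.

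The libraries held 3435 to 4586 cells each after filtering, and collagens made up 2.10% to 2.26% of all UMIs at P1 and 0.699% to 0.890% at P60. At P1 and P60 the classes held 1323 and 860 endoneurial, 1184 and 2430 perineurial, 1929 and 1970 epineurial, 3194 and 442 Schwann, 727 and 1806 endothelial, 600 and 870 mural and 1051 and 1389 immune cells. A further 865 and 2566 fibroblasts were placed in no layer and are in none of these classes. The adult ones were a Cilp-high cluster in which 4 epineurial markers were raised, so the adult epineurial class may not stand for the whole epineurium. Sfrp4 and Mfap4, top genes of that cluster, were also top genes of the P1 epineurial class. When clusters were made with collagens, P1 gave an epineurial cluster of 1075 cells and one of 1188 cells in no layer with Sfrp4 and Mfap4. Age and kind of epineurial cell therefore cannot be told apart in the epineurial age changes. Each pair of libraries shared 14 to 33 cell barcodes. P60 replicate 3 was the shallowest, with a median of 3627 UMIs per cell, and 16.2% of its cells had over 10% mitochondrial UMIs, against 2.97% and 4.84% in the other P60 libraries. It also had the highest collagen share of the P60 libraries in each fibroblast layer. In the Schwann class 10 of 10 Schwann markers were higher than in any other class at both ages, in the endothelial class 10 of 10 endothelial markers, and in the perineurial class 9 and then 12 of 12 perineurial markers. Against all other cells, 5 of the 12 were raised in the P1 perineurial cluster, and 11 and 8 in the adult ones. Perineurial markers summed to 1088 to 1142 CPM in the class at P1 and 6255 to 6580 CPM at P60, and epineurial markers to 1295 to 1372 and 787 to 1157 CPM. The paper calls its own P1 assignment of this layer tentative. Whether the perineurial classes of both ages hold matching cells was not tested.

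Fibroblast RNA also turned up in other classes. Dcn, a proteoglycan gene of fibroblasts, stood in immune cells, which do not make fibrillar collagens, at 3.40% to 5.23% of its fibroblast level at P1 and 6.58% to 6.99% at P60, and Col1a1 there at 6.53% to 9.47% and 5.87% to 8.89%. At P60 the Schwann class held Dcn at 14.4% to 35.0% of the fibroblast level, against 1.58% to 1.73% at P1. The age changes of the collagens described in Schwann, endothelial and mural cells are therefore also given without the cells that hold 10 or more Dcn UMIs. This left 3161 of 3194 Schwann cells at P1 and 371 of 442 at P60. In fibroblasts 7 markers, Dcn among them, summed to 9908 to 10169 CPM at P1 and 19065 to 25444 CPM at P60. The same limit need not mean the same amount of fibroblast RNA at both ages, and it keeps cells with less of it. In the Schwann cells that were left, Dcn was still higher at P60, at 404 ± 13.7 against 55.2 ± 2.11 CPM (edgeR adjusted p = 1.13e-12). Lum (adjusted p = 0.00472) and Pdgfra (adjusted p = 0.0221) were called higher there too. Dcn then stood at 1.94% to 2.71% of the fibroblast level at P60. The part of this remaining RNA in the collagen values was not tested.

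Of the 44 genes, 22 reached a mean of 100 CPM in a class at 1 age, 5 had under 100 UMIs over the named classes, and 0 were without a UMI. A filter on low counts left 40 for at least 1 comparison of the ages. The 4 in none were Col19a1, which had 86 UMIs in Schwann cells at P1, Col4a6, Col6a4 and Col7a1.

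Some type IV chains are encoded in pairs that start side by side on opposite strands, and the results below turn on 2 such pairs. The promoter windows of Col4a1 (chr8:11312777-11313076, minus strand) and Col4a4 (chr1:82586800-82587099, minus strand) are shown because the start of the partner gene lies inside each of them. Sequences and window positions are from RefSeq on GRCm38.p6, and each window holds 300 bases. The annotated starts are those of the GRCm38 gene annotation that also gave the gene positions in the text. Capitals mark the stretch from one annotated start to the other, which is 22 bases for Col4a1 and Col4a2 and 73 bases for Col4a4 and Col4a3.
Col4a1 and Col4a2: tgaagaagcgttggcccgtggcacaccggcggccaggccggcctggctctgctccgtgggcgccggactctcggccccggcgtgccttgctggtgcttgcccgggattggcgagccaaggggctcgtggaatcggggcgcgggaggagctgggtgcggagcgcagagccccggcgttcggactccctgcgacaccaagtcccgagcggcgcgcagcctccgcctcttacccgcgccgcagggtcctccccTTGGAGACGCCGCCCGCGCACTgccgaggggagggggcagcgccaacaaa
Col4a4 and Col4a3: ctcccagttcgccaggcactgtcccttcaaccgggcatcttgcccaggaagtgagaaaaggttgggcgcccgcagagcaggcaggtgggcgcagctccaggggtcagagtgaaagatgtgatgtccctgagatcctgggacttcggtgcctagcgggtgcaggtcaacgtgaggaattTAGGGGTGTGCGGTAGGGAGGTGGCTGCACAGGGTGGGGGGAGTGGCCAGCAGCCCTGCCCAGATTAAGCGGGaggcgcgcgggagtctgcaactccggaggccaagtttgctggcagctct
Since Col4a1 and Col4a2 overlap at their starts, far from the 3′ ends that were counted, their UMIs come from opposite ends of the locus. The windows of Col9a2 (chr4:121039316-121039615, plus strand) and Col11a1 (chr3:114030290-114030589, plus strand) are shown because both genes set endoneurial cells apart from the other fibroblast layers at both ages. Capitals mark GGGCGG or its reverse complement CCGCCC, the letters of a GC box.
Col9a2: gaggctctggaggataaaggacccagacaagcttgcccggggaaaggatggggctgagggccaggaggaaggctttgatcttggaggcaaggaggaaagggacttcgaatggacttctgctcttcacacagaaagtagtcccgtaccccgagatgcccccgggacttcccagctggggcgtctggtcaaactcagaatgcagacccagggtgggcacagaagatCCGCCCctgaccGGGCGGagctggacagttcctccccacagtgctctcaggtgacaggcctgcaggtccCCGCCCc
Col11a1: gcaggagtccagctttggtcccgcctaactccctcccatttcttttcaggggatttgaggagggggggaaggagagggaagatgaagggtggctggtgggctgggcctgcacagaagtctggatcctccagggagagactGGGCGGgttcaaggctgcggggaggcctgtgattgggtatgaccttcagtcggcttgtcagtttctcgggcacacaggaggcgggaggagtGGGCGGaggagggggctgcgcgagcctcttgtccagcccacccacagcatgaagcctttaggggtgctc
A promoter was given for 35 of the 44 collagens, in 38 entries. GGGCGG on either strand was in 23 of the 38 entries and in 35.7% of all 32851 promoters of that length, and CCAAT on either strand in 13 and in 37.4%. The letters ACAAT, a core of SOX sites, were in 2 of the 38 and in 31.0% of all on either strand, and TATAAA in 5 and in 13.6%. A match describes the letters of a window and is not a binding site.

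The share of RNA given to collagen fell with age in every class, and the perineurial class went from near the highest of the fibroblast layers to the lowest. Collagen UMIs were 3.64%, 3.41% and 3.65% of all perineurial UMIs in the 3 libraries at P1 and 0.460%, 0.459% and 0.613% at P60. Endoneurial cells held 3.95%, 3.77% and 3.94% and then 2.22%, 2.11% and 2.74%, and epineurial cells 2.70%, 2.62% and 2.84% and then 1.05%, 0.997% and 1.43%. The ages did not overlap in any class, and the exact permutation test over libraries (two-sided) gave p = 0.1 for each, the smallest that 3 against 3 allows. Means went from 0.663% to 0.498% in Schwann cells, from 0.580% to 0.148% in endothelial cells and from 0.627% to 0.285% in mural cells, and from 0.287% to 0.0979% in immune cells.

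The mix of chains changed too. Fibrillar chains made up 87.1% ± 0.193 of perineurial collagen UMIs at P1 and 51.5% ± 2.04 at P60 (SD, n = 3), while basement membrane chains went from 3.54% ± 0.123 to 18.7% ± 1.38 and network chains from 6.99% ± 0.102 to 27.6% ± 3.19. In endoneurial cells the basement membrane chains went from 2.24% ± 0.0871 to 9.96% ± 0.784 and the FACITs from 2.32% ± 0.0706 to 0.817% ± 0.115. In epineurial cells it was the FACITs that gained, from 2.13% ± 0.0189 to 6.07% ± 0.961. None of these pairs of ages overlapped (exact permutation p = 0.1). Basement membrane chains made up 55.5% ± 4.10 of endothelial collagen UMIs at P1 and 42.7% ± 2.58 at P60. Immune cells had fibrillar shares of 85.4% and 71.4%.

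**Figure D1:**
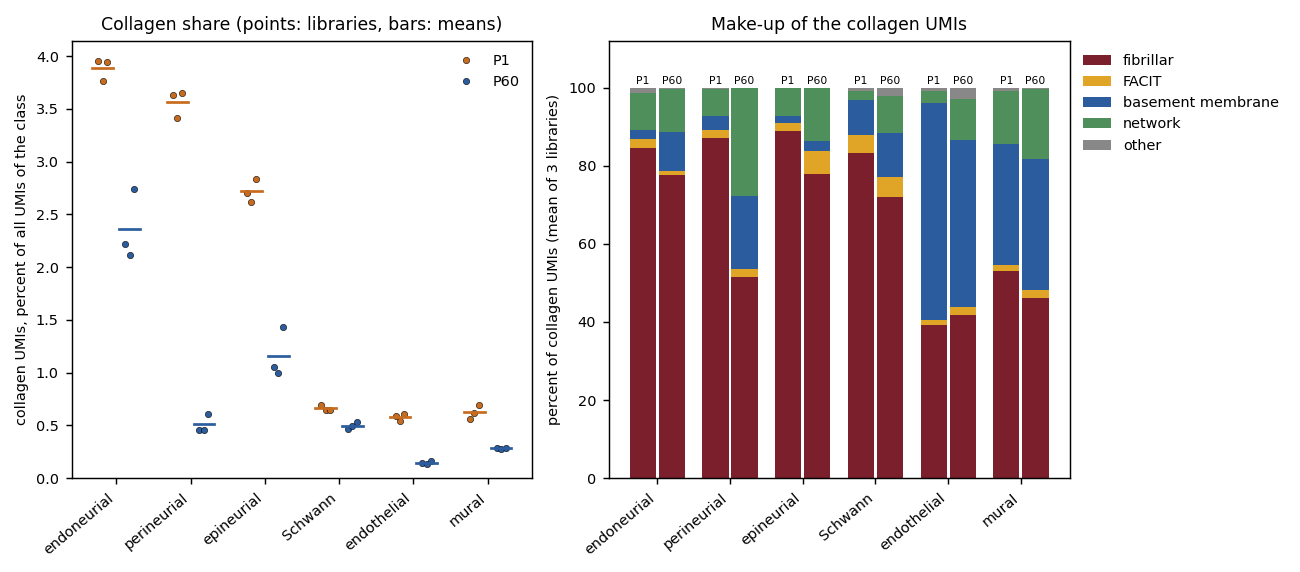
Left, collagen UMIs as a percent of all UMIs of each class (points, 3 libraries per age). Right, the make-up of those collagen UMIs by collagen class (means of 3 libraries). The fibrillar part of the perineurial column shrinks from 87.1% at P1 to 51.5% at P60.

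Gene by gene, edgeR's quasi-likelihood test on the summed counts called most of the collagens tested lower in the adult in each fibroblast layer and in endothelial cells, at a Benjamini-Hochberg adjusted p under 0.05 over all genes tested. In endoneurial cells 7 were higher and 20 lower of 31 tested, where 46.5% of all genes were called, and in perineurial cells 5 higher and 23 lower of 33 (55.8% of all genes). Epineurial cells had 6 higher and 20 lower of 28 (49.2%), and all fibroblasts together 6 higher and 30 lower of 38 (59.8%). Endothelial cells had 2 higher and 19 lower of 23 (40.3%), mural cells 2 higher and 10 lower of 20 (33.0%), and Schwann cells 11 higher and 9 lower of 29 (47.7%). Without the cells of 10 or more Dcn UMIs the Schwann counts turned to 8 higher and 11 lower of 29, while endothelial cells kept theirs and mural cells had 2 higher and 11 lower. The median log2 change of the collagens tested was -0.82 in endoneurial, -1.98 in perineurial, -1.11 in epineurial, -1.55 in endothelial, -0.79 in mural and 0.34 in Schwann cells, beside medians over all genes tested of 0.017, 0.027, 0.014, 0.013, 0.018 and 0.039. Without those cells the Schwann median was -0.39, on the other side of 0. Genes low at both ages did not pass the filter, so these medians describe the genes that passed and not all 44. In endothelial cells Col1a1, Col1a2 and Col3a1 were near the immune share of the fibroblast level at both ages. For Col1a1 at P1 this was 6.47% to 8.11%, against 6.53% to 9.47% in immune cells. The part of fibroblast RNA in the endothelial counts and median was not tested.

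**Figure D2:**
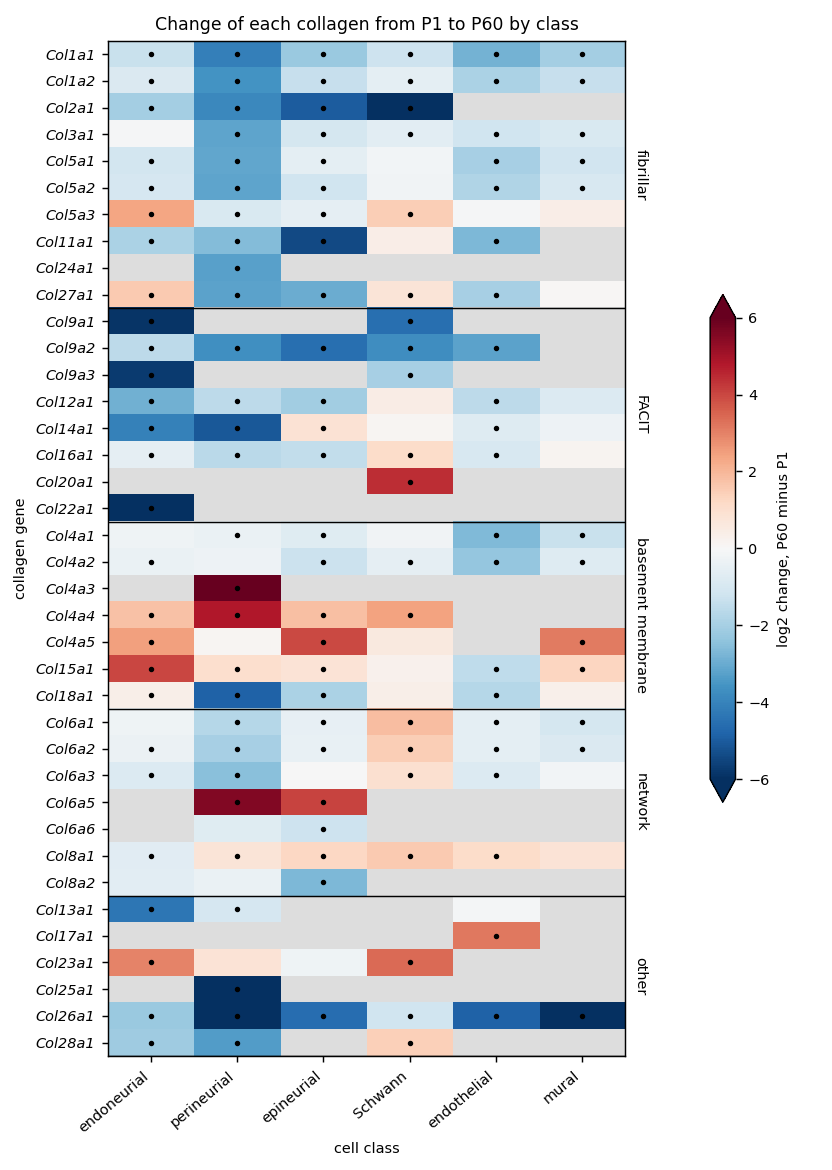
The log2 change from P1 to P60 of each collagen by class (colour, limited to 6 in either direction), with a dot where the adjusted p was under 0.05 and grey where the gene was not tested. In the perineurial column all 10 fibrillar genes tested are lower at P60, while Col4a3, Col4a4 and Col6a5 are higher.

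The chains of type I collagen, the main fibril of the nerve, fell in every layer. Col1a1 (chr11:94936224-94953042, GRCm38, plus strand) was at 12893, 11885 and 12807 CPM in perineurial cells at P1 and at 695, 628 and 893 CPM at P60. In endoneurial cells it went from 12932, 12411 and 12854 CPM to 4682, 3918 and 5767 CPM, and in epineurial cells from 8356, 8097 and 9093 CPM to 1682, 1503 and 2352 CPM. No P60 library reached a P1 library of its layer, and at P60 every perineurial library was below every epineurial one, which in turn were below the endoneurial ones. The log2 changes were -4.09 ± 0.14 (SE) in perineurial cells (edgeR adjusted p = 2.44e-10), -1.33 ± 0.13 in endoneurial cells (adjusted p = 9.74e-07) and -2.25 ± 0.14 in epineurial cells (adjusted p = 6.40e-08).

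The partner chain Col1a2 fell less in each layer. It went from 10205, 9739 and 10102 CPM to 4938, 4629.9 and 6148 CPM in endoneurial cells (-0.86 ± 0.12), from 9386, 8824 and 9524 CPM to 681, 687 and 942 CPM in perineurial cells (-3.59 ± 0.14) and from 6245, 6118 and 6571 CPM to 2283, 2142 and 3106 CPM in epineurial cells (-1.37 ± 0.12). The ratio of Col1a1 to Col1a2 UMIs therefore dropped, in endoneurial cells from 1.267, 1.274 and 1.272 to 0.948, 0.846 and 0.938 and in epineurial cells from 1.338, 1.324 and 1.384 to 0.737, 0.702 and 0.757. It was between 1.345 and 1.374 and then between 0.914 and 1.021 in perineurial cells. The ratio was lower in every P60 library than in any P1 library in the Schwann, endothelial and mural classes as well. The part of fibroblast RNA in the ratios of those classes was not tested. Col1a2 shares its strand with the overlapping gene Gm43921, and Col3a1 with Gm47302, so reads of these pairs may have been split.

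Col3a1 is the single chain of type III collagen, which makes thin fibrils together with type I. It fell less than Col1a1 in each layer, and in endoneurial cells it was not called lower. Endoneurial cells held it at 8514, 7740.2 and 8389.9 CPM at P1 and 6544, 6852 and 8645 CPM at P60, ranges that overlap, with a log2 change of -0.082 ± 0.12 (adjusted p = 0.6). In perineurial cells it went from 8047, 7625 and 8162 CPM to 747, 774 and 1188 CPM (-3.14 ± 0.16, adjusted p = 8.20e-09), and in epineurial cells from 8192, 7759 and 8419.5 CPM to 3463, 3352 and 5375 CPM (-1.04 ± 0.16, adjusted p = 0.000488). The 3 layers overlapped at P1, and at P60 they stood apart in the order endoneurial, epineurial, perineurial. The ratio of Col3a1 to Col1a1 went from between 0.624 and 0.658 to between 1.398 and 1.749 in endoneurial, from between 0.624 and 0.642 to between 1.076 and 1.331 in perineurial and from between 0.926 and 0.980 to between 2.058 and 2.286 in epineurial cells.

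**Figure D3:**
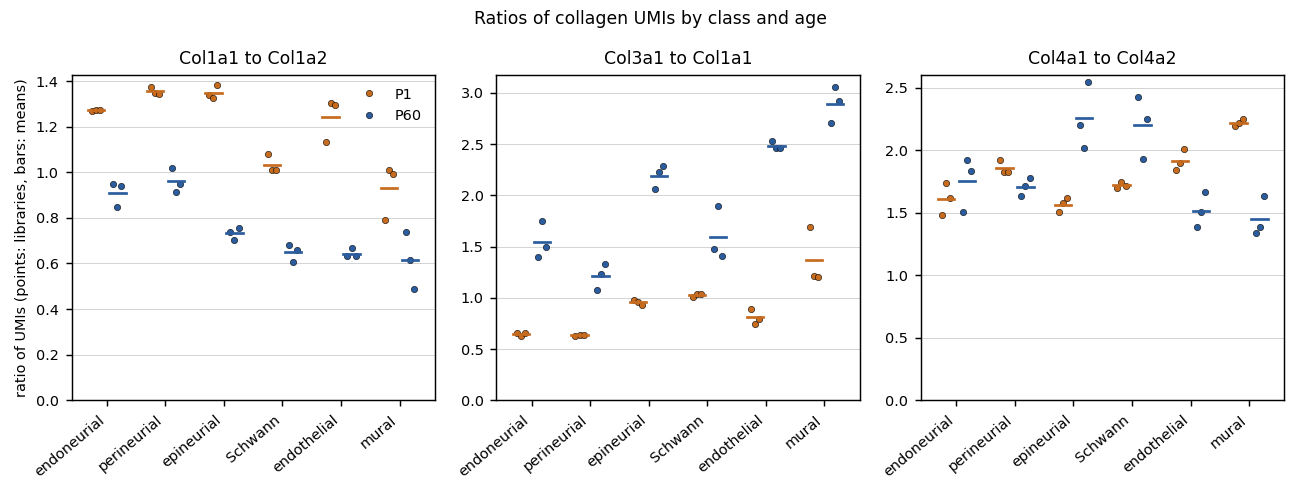
Ratios of summed UMIs of Col1a1 to Col1a2, Col3a1 to Col1a1 and Col4a1 to Col4a2 by class and age (points, 3 libraries). In each fibroblast layer the first ratio is lower and the second higher in every P60 library than in any P1 library.

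The type V chains, which copolymerise with type I and limit fibril diameter, went both ways. Col5a1 went from 493, 465 and 501 CPM to 229, 220.0 and 198 CPM in endoneurial cells (-1.08 ± 0.12) and Col5a2 from 860.1, 782 and 855 CPM to 354, 331 and 481 CPM (-1.02 ± 0.13). Both also fell in perineurial cells, by 3.14 and 3.14, and in epineurial cells, by 0.58 and 1.19 on the log2 scale. Col5a3 was at 40.8, 44.4 and 48.1 CPM in endoneurial cells at P1 and at 209, 201 and 252 CPM at P60, a rise of 2.39 ± 0.12 (adjusted p = 1.32e-09). The same gene fell from between 167 and 172 CPM to between 78.7 and 115 CPM in perineurial cells (-0.90 ± 0.14) and from between 153 and 161 CPM to between 103 and 126 CPM in epineurial cells (-0.54 ± 0.12). The endoneurial level was thus the lowest of the layers in every P1 library and the highest in every P60 library, and the endoneurial and epineurial age changes differed by 2.87 ± 0.11 (adjusted p = 8.47e-47, edgeR interaction test).

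Col27a1, a fibrillar collagen known from cartilage, moved in the same opposite directions at low level. It was at 5.01, 2.36 and 4.22 CPM and then 11.4, 7.47 and 13.6 CPM in endoneurial cells (1.55 ± 0.37, adjusted p = 0.00291), and fell from between 35.2 and 40.5 CPM to between 2.87 and 5.09 CPM in perineurial and from between 35.3 and 41.8 CPM to between 3.66 and 6.87 CPM in epineurial cells. As a group, 10 of 10 fibrillar genes tested fell in perineurial cells, 9 of 9 in epineurial cells and 6 of 9 in endoneurial cells, where 2 rose, with median log2 changes of -3.18, -1.37 and -1.02.

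**Figure D4:**
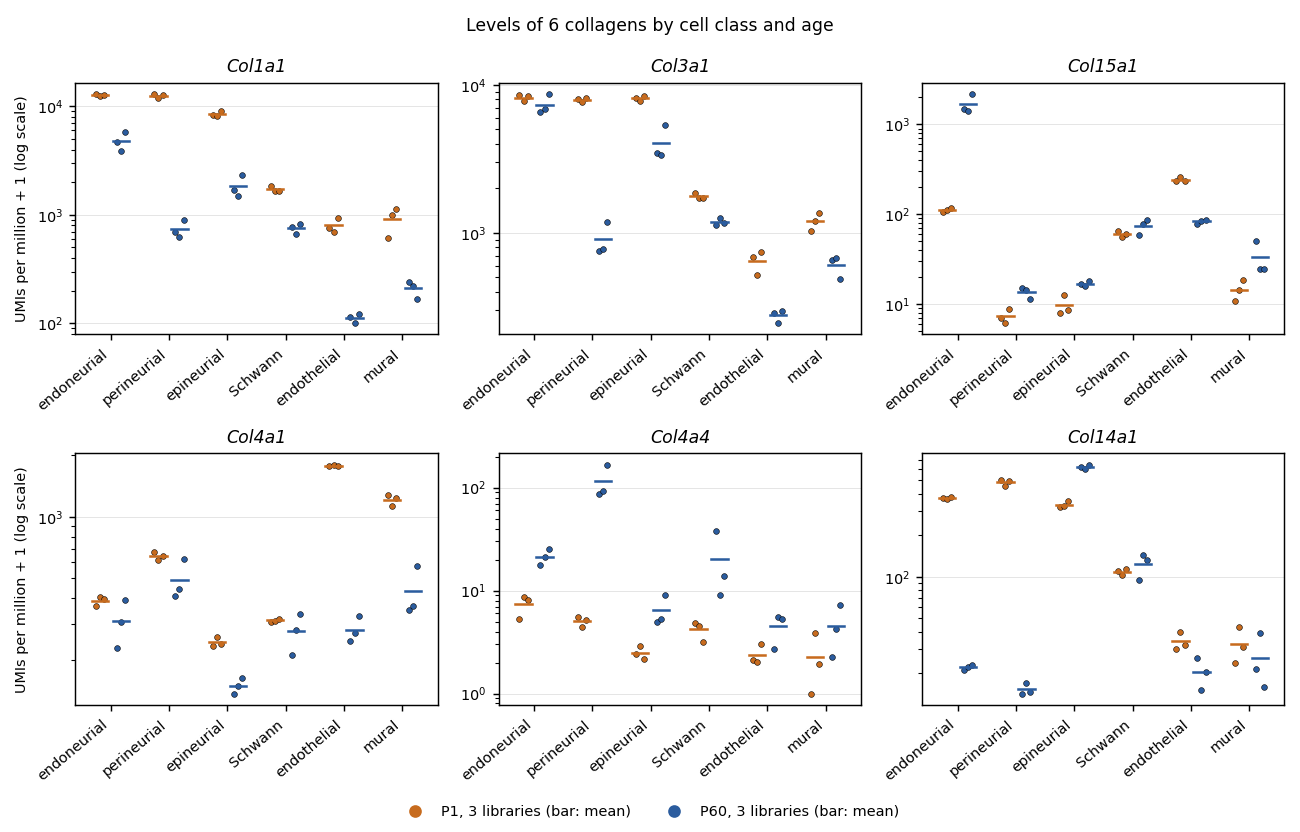
Levels of Col1a1, Col3a1, Col15a1, Col4a1, Col4a4 and Col14a1 in CPM plus 1 on a log axis, by class and age (points, 3 libraries; bars, means). Col15a1 is higher at P60 in the endoneurial column, Col4a4 in the perineurial column and Col14a1 in the epineurial column.

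Of the collagens known from cartilage, Col2a1, Col9a2 and Col11a1 marked the endoneurial class among the fibroblast layers. Col2a1, the type II chain (chr15:97975602-98004695, GRCm38, minus strand), was at 181, 188 and 174 CPM in endoneurial cells at P1, against 2.80 to 4.73 CPM in epineurial and 3.11 to 5.76 CPM in perineurial cells. Col9a2, of the type IX FACIT that coats type II fibrils, was at 329, 352 and 348 CPM against 7.09 to 10.1 and 3.8 to 6.98 CPM. Col11a1, which copolymerises with type II, was at 386, 356 and 379.6 CPM against 10.1 to 13.2 and 74.2 to 79.8 CPM. For each of the 3 genes every endoneurial library was above every library of the other layers, and the endoneurial minus epineurial differences were 5.50 ± 0.14 (adjusted p = 1.83e-42), 5.19 ± 0.10 (adjusted p = 2.10e-74) and 4.83 ± 0.15 (adjusted p = 1.05e-13; edgeR with the library as a block). The cartilage markers Acan, Hapln1, Matn1, Matn3, Cnmd and Ucma together came to 14.6 to 17.6 CPM in endoneurial cells at P1, with 2 of the 6 at 0, and to 1.76 to 9.61 CPM at P60, with 5 of the 6 at 0. Not all collagens of cartilage were highest in endoneurial cells. The type IX partners Col9a1 and Col9a3 had P1 means of 31.3 and 55.5 CPM in Schwann cells. Endoneurial cells came next, at 23.6 and 21.6 CPM. At P1 Col27a1 was highest in epineurial and perineurial cells, at means of 39.5 and 38.0 CPM. The low Col10a1 and Col11a2 had their highest P1 mean in endoneurial cells.

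Col2a1, Col9a2 and Col11a1 fell with age inside the endoneurial class and were still above the other fibroblast layers in the adult. Col2a1 went to 30.8, 52.3 and 45.1 CPM (-2.02 ± 0.16, adjusted p = 1.36e-07), Col9a2 to 120.4, 104 and 105 CPM (-1.56 ± 0.12, 1.31e-07) and Col11a1 to 90.5, 92.9 and 106 CPM (-1.88 ± 0.12, 1.36e-08). No P60 library reached a P1 library for any of them. Epineurial cells at P60 held 1 UMI of Col2a1, 4 of Col9a2 and 3 of Col11a1. Adult Schwann cells held Col11a1 at 63.0, 78.6 and 109 CPM, a range that overlaps the endoneurial one (Schwann minus endoneurial -0.43 ± 0.17, adjusted p = 0.0575), and at 67.3, 99.8 and 132 CPM without the cells of 10 or more Dcn UMIs. The partner chains of type IX nearly vanished, Col9a1 going from 19, 21.5 and 30.2 CPM to 0.879, 0 and 0 CPM and Col9a3 from 21.0, 24.4 and 19.2 CPM to 0, 1.07 and 0 CPM, which is 1 UMI of each in the whole adult class. In cells thinned to 1500 UMIs, 37.4% ± 3.75 of endoneurial cells at P1 and 12.9% ± 1.29 at P60 had a Col9a2 UMI, against 0.777% and 0% of immune cells, and 77.4% and 26.0% of endoneurial cells had one without thinning.

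Col26a1, Col28a1 and Col8a1 also had their highest P1 mean in endoneurial cells. Col26a1, a collagen of little known role, was at 407, 402 and 396 CPM in endoneurial cells at P1 and 91.4, 71.5 and 79.6 CPM at P60 (-2.22 ± 0.13), against 63.3 to 72.6 and then 0 to 1.27 CPM in perineurial cells. Col28a1, known from peripheral nerve, was at 103, 99.3 and 81.8 CPM and then 27.2, 12.8 and 19.9 CPM (-2.13 ± 0.21), below the adult Schwann libraries, which held 68.2, 56.4 and 100.2 CPM. Both fell in endoneurial cells without overlap of the ages. Col8a1, a hexagonal network chain known from vessel walls and cornea, was at 828, 849 and 938 CPM in endoneurial, 459, 425 and 496 CPM in perineurial and 13.4, 21.5 and 15.3 CPM in epineurial cells at P1.

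**Figure D5:**
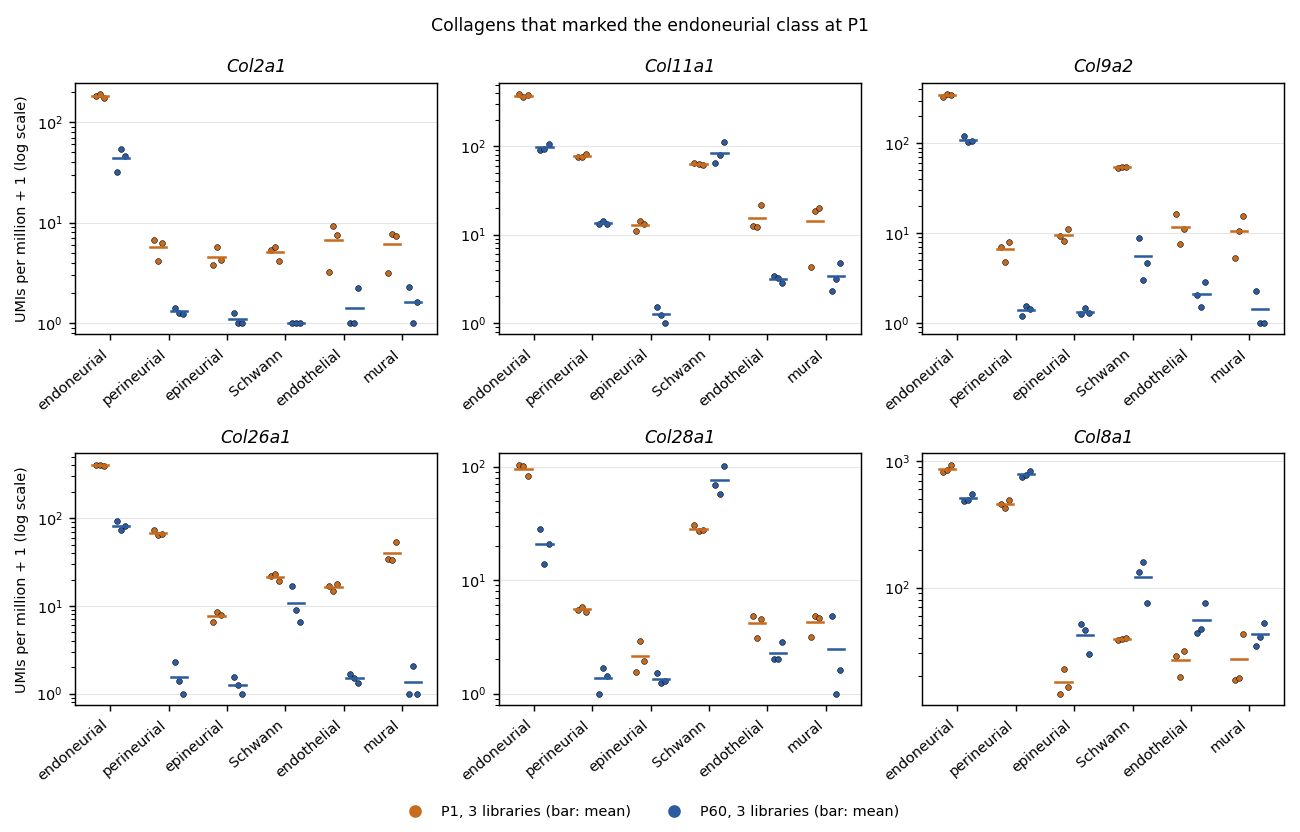
Levels of Col2a1, Col11a1, Col9a2, Col26a1, Col28a1 and Col8a1 in CPM plus 1 on a log axis, by class and age (points, 3 libraries; bars, means). In each panel the highest mean is that of endoneurial cells at P1.

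With age Col8a1 changed places between layers. It fell in endoneurial cells to 483, 493 and 546 CPM (-0.70 ± 0.11, adjusted p = 0.000102) and rose in perineurial cells to 751, 779 and 841 CPM (0.78 ± 0.10, adjusted p = 2.74e-05). In both layers the ages stood apart, and the perineurial minus endoneurial difference went from -0.94 ± 0.061 at P1 (adjusted p = 1.60e-11) to 0.62 ± 0.20 at P60 (adjusted p = 0.0232).

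The FACIT Col14a1, which binds type I fibrils (chr15:55307750-55520803, GRCm38, plus strand), was shared by the layers at P1 and, among them, epineurial in the adult. Fibroblasts placed in no layer are not part of these values. At P1 it was at 373, 366 and 379 CPM in endoneurial, 502, 452 and 494 CPM in perineurial and 316, 326 and 354 CPM in epineurial cells. At P60 it was at 20.2, 21.4 and 22.0 CPM, 13.3, 15.9 and 13.7 CPM and 618, 597 and 645 CPM in the same order. The adult epineurial libraries were above all P1 libraries and the other adult layers far below them, with log2 changes of -4.05 ± 0.15 (adjusted p = 2.86e-11), -5.07 ± 0.13 (6.36e-11) and 0.86 ± 0.10 (5.34e-06). The age change differed from the epineurial one by -4.97 ± 0.13 in endoneurial cells (adjusted p = 1.98e-62) and by -5.92 ± 0.090 in perineurial cells (7.55e-42). In thinned cells a Col14a1 UMI was seen in 47.6% ± 1.03 and then 1.80% ± 0.573 of perineurial cells, in 33.9% ± 0.914 and then 56.0% ± 2.15 of epineurial cells and in 5.81% and 3.98% of immune cells; without thinning the perineurial shares were 88.1% and 6.51%.

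Other FACITs fell in each layer. Col12a1, of dense connective tissue, went from 156, 133 and 156 CPM to 34.0, 44.5 and 27.0 CPM in epineurial cells (-2.11 ± 0.17) and fell by 2.88 in endoneurial and 1.58 in perineurial cells. Col16a1 went from 155, 144 and 129 CPM to 42.2, 40.2 and 58.0 CPM in perineurial cells (-1.62 ± 0.15) and fell by 0.52 and 1.48 in endoneurial and epineurial cells. In endoneurial cells 7 of 7 FACIT genes tested fell, with a median of -4.05.

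Col15a1, a multiplexin of the basement membrane zone known from nerve, muscle and capillaries (chr4:47208161-47313167, GRCm38, plus strand), had the largest rise of the collagens tested in endoneurial cells. They held it at 106, 111 and 116 CPM at P1 and at 1499, 1392 and 2160.3 CPM at P60. Every P60 library was far above every P1 library, and the log2 change was 4.0 ± 0.15, a fold of 16 (adjusted p = 5.01e-11). Perineurial cells held 10.4 to 14.3 CPM and epineurial cells 15.2 to 17.2 CPM at P60, where the endoneurial minus epineurial difference was 6.63 ± 0.18 (adjusted p = 1.58e-15). In thinned cells 13.4% ± 2.11 of endoneurial cells at P1 and 85.1% ± 7.0 at P60 had a Col15a1 UMI, against 1.80% and 2.01% of immune cells; without thinning the endoneurial shares were 48.3% and 95.4%.

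The other multiplexin, Col18a1, the source of endostatin, differed by layer. It went from 242, 279 and 231 CPM to 8.86, 7.76 and 9.93 CPM in perineurial cells (-4.84 ± 0.15, adjusted p = 1.57e-10) and from 41.2, 49.9 and 47.8 CPM to 13.1, 12.8 and 12.7 CPM in epineurial cells (-1.89 ± 0.15). In endoneurial cells it went from 121, 118 and 119 CPM to 147, 147 and 141 CPM (0.37 ± 0.11, adjusted p = 0.0167). Among the 3 layers it was highest in perineurial cells at P1 and in endoneurial cells at P60. Endothelial cells, with a mean of 255 CPM, overlapped perineurial cells at P1, and mural cells, with 157 CPM, overlapped endoneurial cells at P60.

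In the perineurial class the type IV chains Col4a3 and Col4a4 rose with age. Col4a1 and Col4a2, the chains of nearly all basement membranes, stood at 671, 616 and 643 CPM and 349, 337 and 353 CPM in perineurial cells at P1, and at 408, 440.4 and 622 CPM and 250.2, 257 and 350.2 CPM at P60. The ages overlapped for both, with log2 changes of -0.40 ± 0.14 (adjusted p = 0.0267) and -0.28 ± 0.13 (adjusted p = 0.0742). Without the adult cluster of more mitochondrial RNA Col4a1 was not called either (-0.30, adjusted p = 0.0869). Col4a4, whose chain joins those of Col4a3 and Col4a5 in the type IV network of the kidney glomerulus, was at 4.48, 3.46 and 4.19 CPM and then at 86.3, 90.7 and 166 CPM, and its head-to-head neighbour Col4a3 at 0.320, 0 and 0.837 CPM and then at 28.7, 28.6 and 67.0 CPM. The ages stood apart for both of these, and the log2 changes were 4.79 ± 0.30 (adjusted p = 4.22e-08) and 6.52 ± 0.66 (2.45e-05). Markers of other cell types were higher in the adult perineurial class as well. The tendon markers Scx, Tnmd, Mkx and Fmod summed to 26.3 to 36.1 CPM at P1 and 307 to 377 CPM at P60, with 1 and then 0 of the 4 at 0, and 5 skeletal muscle markers to 5.88 to 8.0 and 205 to 231 CPM, with 3 of the 5 at 0 at both ages. The sums were 384 to 435 and 2918 to 3542 CPM for 10 mural markers, none of them at 0, 132 to 136 and 225 to 317 CPM for 5 adipocyte markers, 2 and then 0 of them at 0, and 129.6 to 143 and 262 to 294 CPM for 10 endothelial markers, none at 0. The part of these markers in the result was not tested.

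The UMI ratio of Col4a4 to Col4a1 in perineurial cells went from between 0.006 and 0.007 to between 0.206 and 0.266. P60 replicate 3 had the highest level of both Col4a3 and Col4a4. In thinned cells a Col4a4 UMI was seen in 0.609% ± 0.425 and then 16.5% ± 4.61 of perineurial cells and in 0.102% and 0.211% of immune cells, and a Col4a3 UMI in 0.0777% ± 0.135 and then 5.52% ± 3.06 of perineurial cells and in 0% and 0.174% of immune cells; without thinning the perineurial shares were 2.97% and 46.5% for Col4a4 and 0.322% and 22.1% for Col4a3. At P60 perineurial exceeded epineurial cells by 4.28 ± 0.23 for Col4a4 (adjusted p = 1.04e-12) and by 6.32 ± 0.32 for Col4a3 (1.56e-22).

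Col4a5, the third chain of that network, did not pass the test in perineurial cells, where it was at 11.8, 9.68 and 9.77 CPM and then 8.65, 10.0 and 15.4 CPM (0.11 ± 0.24, adjusted p = 0.723). It rose from 2.52, 3.31 and 2.29 CPM to 28.0, 30.3 and 74.8 CPM in epineurial cells (3.97 ± 0.56, adjusted p = 0.00141) and from 6.51, 3.42 and 6.96 CPM to 28.1, 25.6 and 35.6 CPM in endoneurial cells (2.45 ± 0.26, 2.79e-06). Neither of these pairs of ages overlapped, and P60 replicate 3 had the highest value in each layer. Col4a6, which lies head to head with Col4a5 on the X chromosome with starts 1309 bases apart, had 2 and 19 UMIs in epineurial cells and was not tested.

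Type VI collagen, whose beaded filaments lie between fibrils and cells, fell most in perineurial cells. There Col6a1 went from 862, 861 and 863 CPM to 277, 242 and 273 CPM (-1.71 ± 0.10, adjusted p = 2.02e-08), Col6a2 from 628, 614 and 635 CPM to 178, 149.6 and 152 CPM (-1.98 ± 0.11) and Col6a3 from 535, 498 and 531 CPM to 81.8, 89.7 and 105 CPM (-2.50 ± 0.12). No P60 library reached a P1 library for any of the 3. Endoneurial Col6a1 was at 1310.0, 1275 and 1318 CPM and then 1113, 957 and 1010.0 CPM (-0.26 ± 0.11, adjusted p = 0.0726), and epineurial Col6a3 at 318, 298 and 309 CPM and then 281, 282 and 378 CPM (-0.015 ± 0.13, adjusted p = 0.934).

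The long type VI chains related to Col6a3 were bound to layers. Col6a5 went from 2.56, 0.691 and 0.837 CPM to 52.5, 66.1 and 79.8 CPM in perineurial cells (5.57 ± 0.32, adjusted p = 1.84e-08) and from between 0.280 and 0.709 CPM to between 9.47 and 11.8 CPM in epineurial cells (4.07 ± 0.36). Col6a6 was at 52.1, 51.1 and 53.3 CPM and then 21.5, 16.1 and 30.1 CPM in epineurial cells (-1.26 ± 0.18), against 1.69 to 2.63 and 0 to 4.19 CPM in endoneurial and 3.07 to 3.8 and 1.54 to 2.53 CPM in perineurial cells. No library of these 2 layers came near the epineurial ones at either age.

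The low members were also uneven. Col22a1, a FACIT of tissue junctions, was at 4.76, 4.20 and 7.80 CPM in endoneurial cells at P1 and had 0 UMIs there at P60, and Col10a1, the chain of growth-plate cartilage, was at 3.51, 4.47 and 2.53 CPM with 0 UMIs at P60. Col24a1, a fibrillar collagen, was at 6.72 to 10.0 CPM and then 0.633 to 1.07 CPM in perineurial cells, where Col25a1, a transmembrane collagen, was at 6.91 to 8.0 CPM and then 0 to 0.221 CPM. Col8a2, the partner of Col8a1, was at 7.56 to 8.40 CPM and then 0.785 to 1.66 CPM in epineurial cells (-2.72 ± 0.33), and Col11a2 was at 2.89 to 5.48 CPM in endoneurial cells at P1, with 0 UMIs there at P60. In Col22a1, Col10a1 and Col24a1 the P1 libraries were all above the P60 ones.

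Set against each other at one age, the layers differed in these numbers of collagens, each beside the share of all genes called. At P1 endoneurial cells were higher in 23 and lower in 6 of 34 than epineurial cells (52.0% of all genes), perineurial cells higher in 18 and lower in 6 of 34 than epineurial (39.7%) and higher in 13 and lower in 15 than endoneurial cells (39.0%). At P60 the same pairs gave 21 and 6 of 34 (36.1%), 10 and 12 (54.9%), and 8 and 19 (44.7%). The median difference of the collagens at P60 was 1.01 for endoneurial minus epineurial, -0.11 for perineurial minus epineurial and -1.50 for perineurial minus endoneurial cells, beside -0.057, 0.017 and 0.071 over all genes. All 9 fibrillar genes tested were lower in perineurial than in endoneurial cells at P60. The age change differed between endoneurial and epineurial cells for 17 collagens to the endoneurial side and 6 to the other of 35 (34.7% of all genes), and between perineurial and epineurial cells for 6 to the perineurial side and 12 to the other of 33 (42.4%).

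In both vessel classes Col4a1 and Col4a2 fell with age. Basement membrane chains were the largest part of endothelial collagen UMIs at P1, whereas in mural cells they made up 30.9% and 33.5%, below fibrillar shares of 53.2% and 46.2%. Endothelial Col4a1 was at 1769.7, 1798 and 1770.0 CPM at P1 and at 245, 268 and 326 CPM at P60 (-2.65 ± 0.13, adjusted p = 1.01e-09), and Col4a2 at 959, 946 and 882 CPM and then 177, 178 and 196 CPM (-2.32 ± 0.11, 1.36e-09). Mural Col4a1 was at 1272, 1123 and 1233 CPM and then 350.5, 367 and 575 CPM (-1.36 ± 0.23, adjusted p = 0.0017), and Col4a2 at 579.6, 507 and 548 CPM and then 262, 264 and 352 CPM (-0.78 ± 0.17). Neither gene overlapped between ages in either class. Without the cells of 10 or more Dcn UMIs the changes of Col4a1 and Col4a2 were -2.70 and -2.34 in endothelial and -1.38 and -0.81 in mural cells, each still called. The endothelial minus mural difference of Col4a1 went from 0.59 ± 0.039 at P1 (adjusted p = 3.43e-29) to -0.67 ± 0.13 at P60 (0.000211), and the age changes differed by -1.20 ± 0.12 (adjusted p = 2.23e-06). In thinned cells a Col4a1 UMI was seen in 81.3% ± 1.77 and then 31.7% ± 4.39 of endothelial, 75.5% ± 0.702 and then 42.2% ± 8.23 of mural and 6.22% and 4.26% of immune cells; without thinning the endothelial shares were 94.8% and 65.1%.

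The multiplexins fell in endothelial cells as well, Col15a1 from 232, 257 and 233 CPM to 77.6, 84.1 and 85.9 CPM (-1.53 ± 0.12, adjusted p = 1.20e-07) and Col18a1 from 279, 249 and 238 CPM to 82.4, 67.3 and 83.8 CPM (-1.70 ± 0.13). Neither overlapped between ages. Among adult endothelial cells, the 822 of a cluster with Ccl21a held Col15a1 at 199.9 CPM and Col13a1, a transmembrane collagen, at 75 CPM, against 17.3 and 1.13 CPM in the other 984. All 5 lymphatic endothelial markers were raised in that cluster, and their summed level in the endothelial class was 63.7 to 342 CPM at P1 and 2578 to 3599 CPM at P60. The cluster is not lymphatic as a whole by its markers: 9 of 10 endothelial markers were raised as well, and Aqp1, Plvap, Fabp4 and Cd300lg were among its top genes. The paper describes only a small group of cells with lymphatic markers inside its Cd300lg-rich endothelial cluster. Without the cluster the endothelial age changes were -2.85 for Col4a1, -2.61 for Col4a2, -3.70 for Col15a1, -1.61 for Col18a1 and -4.46 for Col13a1, which had changed by -0.10 with it, and the P60 endothelial minus mural difference of Col15a1 turned from 1.44 to -0.73. These age changes set the other 984 adult cells alone against all endothelial cells of P1. Age and kind of endothelial cell cannot be told apart in them. Col1a1 in endothelial cells was at 6.47% to 8.11% of the fibroblast level at P1 and 5.23% to 6.85% at P60, close to the immune shares given above. Col17a1, the transmembrane collagen of hemidesmosomes, rose from 0.551, 0.514 and 1.01 CPM to 7.24, 6.53 and 6.09 CPM (3.18 ± 0.47, adjusted p = 8.19e-05), and by 3.62 without the Ccl21a cluster. The endothelial changes without the cells of 10 or more Dcn UMIs were -1.65 for Col15a1, -1.71 for Col18a1 and 3.15 for Col17a1, all still called.

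Mural cells held type VI chains above the immune share, with Col6a1 at 33.7% to 35.0% and 18.3% to 36.5% of the fibroblast level against 5.11% to 7.23% and 5.11% to 11.6% in immune cells. Col6a1 was at 361, 338 and 361 CPM and then 187, 179 and 113 CPM (-1.07 ± 0.15, adjusted p = 0.000277), and Col6a3 at 174, 151 and 209 CPM and then 148, 126 and 171 CPM (-0.14 ± 0.18, adjusted p = 0.583). Only the first stood apart between ages. Col4a5 rose from 1.08, 4.82 and 6.41 CPM to 19.3, 24.6 and 53.6 CPM (3.12 ± 0.59, adjusted p = 0.00308), and Col15a1 by 1.29 (adjusted p = 0.0144). The changes without the cells of 10 or more Dcn UMIs were -1.24 for Col6a1, -0.17 for Col6a3 and 3.29 for Col4a5, with the same calls, and 0.81 for Col15a1, which no longer passed (adjusted p = 0.0569). Among adult mural cells, the 567 of a cluster with Myh11, a myosin of smooth muscle, held Col4a5 at 45.3 CPM and Col4a6 at 10.1 CPM, against 6.30 and 0 CPM in the 303 of a cluster with Rgs5 and Kcnj8, genes of pericytes. Col6a1 went the other way: the Rgs5 and Kcnj8 cluster held it near the P1 level of the class and the Myh11 cluster far below. Mural cells were not split at P1, so a changed mix of these cells and a change within them cannot be told apart. Endothelial cells were higher than mural cells in 5 and lower in 13 collagens at P1 (47.0% of all genes called) and in 4 and 16 at P60 (47.8%), and the age change differed for 1 to the endothelial side and 9 to the mural side (17.3%).

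Schwann cells ensheathe axons and lie on a basement membrane of their own. Their Col4a1 was at 306, 309 and 315 CPM at P1 and 209.9, 280.0 and 334 CPM at P60, ranges that overlap (-0.23 ± 0.15, adjusted p = 0.215), and Col4a2 went from 180.0, 177 and 184 CPM to 86.6, 145 and 148 CPM (-0.55 ± 0.15, adjusted p = 0.00755). Without the cells of 10 or more Dcn UMIs both were called lower, Col4a1 with a log2 change of -0.43 ± 0.17 (adjusted p = 0.0485) and Col4a2 with -0.56 ± 0.17 (adjusted p = 0.0147). Col5a3 rose from 36.9, 41.7 and 42.7 CPM to 118, 92.6 and 145 CPM (1.48 ± 0.16, adjusted p = 1.47e-06) without overlap, and by 1.5 without those cells.

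The chains of type IX fell in Schwann cells and several low collagens rose. Col9a1 went from 29.1, 34.0 and 31.0 CPM to 5.25, 0 and 0 CPM (-4.51 ± 0.58), Col9a2 from 52.0, 53.5 and 53.9 CPM to 7.87, 2.01 and 3.71 CPM (-3.71 ± 0.34, adjusted p = 2.30e-07) and Col9a3 from 54.2, 54.9 and 57.2 CPM to 21.0, 10.1 and 14.8 CPM (-1.97 ± 0.25). All 3 were lower in every P60 library. Col28a1 rose from 29.6, 25.8 and 26.3 CPM to 68.2, 56.4 and 100.2 CPM (1.41 ± 0.20, adjusted p = 2.13e-05), against its fall in endoneurial cells, and the age changes differed by 3.55 ± 0.25 (adjusted p = 1.16e-23). Col27a1 rose from 40.7, 36.1 and 35.2 CPM to 49.9, 48.3 and 96.5 CPM (0.77 ± 0.22, adjusted p = 0.00827), and Col23a1, a transmembrane collagen, from 2.39, 2.43 and 0.955 CPM to 15.7, 18.1 and 27.8 CPM (3.38 ± 0.46). Each was higher in every P60 library.

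Col20a1, a FACIT, rose from 0.795, 0.713 and 0.409 CPM to 15.7, 20.1 and 9.28 CPM (4.41 ± 0.53, adjusted p = 4.49e-06), on 21 UMIs in 1.15% of the adult Schwann cells. Without the cells of 10 or more Dcn UMIs, which left 371 of 442 adult Schwann cells, the log2 changes were -3.99 for Col9a1, -3.45 for Col9a2, -1.54 for Col9a3, 1.77 for Col28a1, 0.89 for Col27a1, 3.51 for Col23a1 and 4.92 for Col20a1, all of them still called.

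The type VI chains did not hold up in the same way. Col6a1 was at 45.6, 41.4 and 42.9 CPM in Schwann cells at P1 and at 168, 219.5 and 106 CPM at P60 (1.84 ± 0.20, adjusted p = 1.06e-05), and Col6a2, Col6a3 and Col8a1 were called higher by 1.49, 0.96 and 1.56. Without the cells of 10 or more Dcn UMIs, Col6a1 was at 39.6, 57.0 and 45.3 CPM at P60 (0.40 ± 0.22, adjusted p = 0.172), Col6a2 had a log2 change of 0.25 (adjusted p = 0.477) and Col6a3 one of -0.14 (0.796), and Col8a1 fell by 1.64 (0.00355). Col1a1 fell by 1.26 in the whole class and by 1.64 without the Dcn-rich cells. It stood in the whole class at 14.1% to 16.2% of the fibroblast level at P1 and 35.9% to 46.1% at P60, above the immune share. Without the Dcn-rich cells the P60 range was 26.7% to 31.9%.

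Against endoneurial cells, Schwann cells were higher in 4 and lower in 28 of 34 collagens at P1 (69.0% of all genes called) and higher in 7 and lower in 17 at P60 (29.1%), and the age change differed for 12 to the Schwann side and 5 to the endoneurial side (26.5%). These counts without the cells of 10 or more Dcn UMIs were 6 and 19 at P60 and 8 and 5 for the age change. Col27a1 was higher in Schwann cells at both ages, by 3.19 ± 0.17 and 2.32 ± 0.36. Col2a1 was at 3.14 to 4.71 CPM in Schwann cells at P1 and had no UMI there at P60, where 3 counts over the class would be 2.12 CPM.

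Most genes that make collagen were lower in adult perineurial cells. Of 28 tested (hydroxylases, chaperones, trimming enzymes and crosslinkers), 22 were lower and 2 higher there at P60, where 55.8% of all genes were called in either direction. The counts were 15 lower and 2 higher of 27 in endoneurial (called share of all genes 46.5%), 15 and 6 of 28 in epineurial (49.2%), 13 and 3 of 26 in endothelial (40.3%), 7 and 1 of 25 in mural (33.0%), and 7 and 11 of 26 in Schwann cells (47.7%), and the mural count was at the share of all genes. Lox, which starts the crosslinks, fell from 240.5 ± 12.6 to 26.6 ± 2.64 CPM in perineurial cells (log2 change -3.19 ± 0.12) and from 33.2 ± 0.617 to 7.89 ± 3.34 CPM in endoneurial cells (-1.97 ± 0.26). Fkbp10, a chaperone of procollagen, fell by 2.98 in endothelial, 1.94 in mural and 1.45 in Schwann cells, and the prolyl hydroxylase gene P3h2 by 3.17 in epineurial cells.

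Of the genes of collagen breakdown, 4 of 5 tested were lower and 1 higher in perineurial cells (55.8% of all genes called), 1 of 5 lower and 1 higher in endoneurial cells (46.5%), and 1 of 6 lower and 3 higher in epineurial cells (49.2%). Mmp2, a gelatinase, rose from 289.6 ± 12.1 to 1259 ± 258 CPM in endoneurial cells (2.21 ± 0.16), and Mmp3, stromelysin, from 3.08 ± 0.903 to 84.2 ± 18.8 CPM in epineurial cells (4.73 ± 0.23).

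Of the collagen receptors, 3 of 7 were higher and 1 lower in endoneurial (46.5% of all genes called), 3 of 6 higher and 2 lower in perineurial (55.8%), and 5 of 9 higher and 4 lower in epineurial cells (49.2%), and the endoneurial count was near the share of all genes. Itga11, an integrin chain that binds fibrillar collagen, rose from 0.382 ± 0.217 to 13.9 ± 2.58 CPM in endoneurial cells (5.05 ± 0.44) and from 4.20 ± 0.532 to 74.9 ± 14.1 CPM in epineurial cells (4.11 ± 0.20). Itga1, an integrin chain that binds type IV collagen, rose from 103 ± 9.50 to 325 ± 49.0 CPM in perineurial cells (1.66 ± 0.13), as did the kinase receptor gene Ddr1 (2.02 ± 0.17). Itga2 fell from 44.2 ± 3.35 to 1.88 ± 0.753 CPM in endothelial cells (-4.51 ± 0.26).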

How the data were processed

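Single-cell suspensions of sciatic nerve were sequenced by 10x Chromium 3′ v2 chemistry, 3 per age. The authors deposited raw UMI counts per gene and cell barcode made with Cell Ranger 2.0.2. The submitters' processing notes name GRCm38.p5, and the gene identifiers are mouse Ensembl genes; whether counting used strand is not given in the sources used here.

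Cells with 500 to 5000 genes were kept. Each age was clustered in Seurat 5.3.0 (10 principal components, 30 neighbours, resolution 0.5 at P1 and 0.4 at P60, counts scaled to 10000 per cell, or to 10 times that in an alternative) with collagens removed, and clusters were named from fixed markers. Clusters without a name, or of fibroblasts in no layer, were left out of the layers. Doublets were not removed; Scrublet (scanpy 1.11.5) scores served an alternative. Counts were summed per library and class and tested with edgeR 4.0.16 (TMM, robust quasi-likelihood fit, filterByExpr, R 4.3.3), with Benjamini-Hochberg adjusted p under 0.05 over all genes. Standard errors of log2 values were derived from the test, as the absolute log2 value divided by the square root of its F statistic. Differences between classes kept the library as a block. The fit was tested on simulated data. For shares of cells with a UMI, cells were thinned to 1500 UMIs and shallower cells left out. Exact permutation tests over 3 against 3 libraries cannot go below p = 0.1. The floor is 3 counts over a class and covers counting error only. Total UMIs in kept cells ran from 20203440 to 30334608 per library. Alternatives were DESeq2 1.42.0, library size scaling, no filter, other clusterings, equal cell numbers, no Dcn-rich cells, each library left out and a replicate block.

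Values in every library are given for collagens with a mean of at least 100 CPM in a class; other members are given by ranges and counts or as the largest called changes of their group, and from the pathway lists the 2 called genes with the largest change in each direction could be named. The members and lists were chosen with earlier results of these data known.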

Additional observations from a re-analysis of the deposited data

Results flagged for a closer look

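The results below were picked out because the change from P1 to P60 differed between 2 cell classes by edgeR's interaction test. Values are on the log2 scale, with the standard error of the difference and the adjusted p over all genes tested, and no explanation was weighed. With 3 libraries per age, no group was large enough for a search for single outlying samples.

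For Col14a1 the endoneurial change minus the epineurial change was -4.97 ± 0.13 (adjusted p = 1.98e-62), from changes of -4.05 in endoneurial and 0.86 in epineurial cells. Col15a1 had a difference of 3.11 ± 0.21 (adjusted p = 1.49e-25), from changes of 4.0 in endoneurial and 0.83 in epineurial cells. Col18a1 had a difference of 2.21 ± 0.15 (adjusted p = 4.41e-25), from changes of 0.37 in endoneurial and -1.89 in epineurial cells. Col23a1 had a difference of 3.26 ± 0.75 (adjusted p = 0.000186), from changes of 2.97 in endoneurial and -0.28 in epineurial cells. Col27a1 had a difference of 4.49 ± 0.44 (adjusted p = 4.69e-16), from changes of 1.55 in endoneurial and -2.97 in epineurial cells. Col5a3 had a difference of 2.87 ± 0.11 (adjusted p = 8.47e-47), from changes of 2.39 in endoneurial and -0.54 in epineurial cells. Col8a1 had a difference of -2.01 ± 0.23 (adjusted p = 2.66e-05), from changes of -0.70 in endoneurial and 1.25 in epineurial cells. Col8a2 had a difference of 2.09 ± 0.59 (adjusted p = 0.00262), from changes of -0.63 in endoneurial and -2.72 in epineurial cells.

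For Col13a1 the endothelial change minus the mural change was -3.28 ± 0.81 (adjusted p = 0.00651), with a change of -0.10 in endothelial cells and no separate test in mural cells. Col15a1 had a difference of -2.72 ± 0.32 (adjusted p = 1.10e-05), from changes of -1.53 in endothelial and 1.29 in mural cells. Col27a1 had a difference of -1.91 ± 0.49 (adjusted p = 0.00839), from changes of -1.99 in endothelial and 0.067 in mural cells. Col6a3 had a difference of -0.61 ± 0.19 (adjusted p = 0.033), from changes of -0.82 in endothelial and -0.14 in mural cells.

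For Col11a1 the perineurial change minus the epineurial change was 2.80 ± 0.58 (adjusted p = 7.65e-05), from changes of -2.60 in perineurial and -5.39 in epineurial cells. Col14a1 had a difference of -5.92 ± 0.090 (adjusted p = 7.55e-42), from changes of -5.07 in perineurial and 0.86 in epineurial cells. Col4a5 had a difference of -3.82 ± 0.31 (adjusted p = 1.25e-14), from changes of 0.11 in perineurial and 3.97 in epineurial cells. Col6a3 had a difference of -2.49 ± 0.072 (adjusted p = 3.07e-31), from changes of -2.50 in perineurial and -0.015 in epineurial cells.

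For Col11a1 the Schwann change minus the endoneurial change was 2.27 ± 0.19 (adjusted p = 9.21e-19), from changes of 0.40 in Schwann and -1.88 in endoneurial cells. Col14a1 had a difference of 4.17 ± 0.21 (adjusted p = 2.25e-34), from changes of 0.14 in Schwann and -4.05 in endoneurial cells. Col15a1 had a difference of -3.77 ± 0.14 (adjusted p = 1.98e-44), from changes of 0.25 in Schwann and 4.0 in endoneurial cells. Col16a1 had a difference of 1.63 ± 0.22 (adjusted p = 2.23e-09), from changes of 1.10 in Schwann and -0.52 in endoneurial cells. Col28a1 had a difference of 3.55 ± 0.25 (adjusted p = 1.16e-23), from changes of 1.41 in Schwann and -2.13 in endoneurial cells. Col6a2 had a difference of 1.89 ± 0.19 (adjusted p = 1.74e-15), from changes of 1.49 in Schwann and -0.37 in endoneurial cells. Col6a3 had a difference of 1.79 ± 0.21 (adjusted p = 5.74e-12), from changes of 0.96 in Schwann and -0.82 in endoneurial cells. Col8a1 had a difference of 2.27 ± 0.19 (adjusted p = 1.64e-14), from changes of 1.56 in Schwann and -0.70 in endoneurial cells. Without the cells of 10 or more Dcn UMIs the differences of Col8a1, Col6a2 and Col6a3 were -0.93, 0.70 and 0.69, none of them called (adjusted p = 0.128, 0.123 and 0.147), and that of Col14a1 was still called, with a Schwann change of -0.67 that was itself called (adjusted p = 0.0172). Dcn stood far higher in the adult than in the P1 Schwann class, and its part in these values was not tested.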

How the results depend on the processing

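Of 7333 repeats of called collagens under an alternative, 7057 kept direction and side of the threshold, 259 no longer passed and 17 reversed. With 50 cells per library, the collagens called between ages numbered 9 against 20 in Schwann, 17 against 36 in all fibroblasts, 15 against 27 in endoneurial, 12 against 26 in epineurial, 8 against 21 in endothelial and 7 against 12 in mural cells, as fewer cells were counted. Without a filter on low counts 21 were called in mural cells, and DESeq2 called 4 against 10 for the endothelial minus mural age change.

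Leaving out 1 library at a time gave 14 to 21 calls between ages in Schwann, 35 to 39 in all fibroblasts, 22 to 32 in endoneurial, 26 to 28 in perineurial, 26 to 28 in epineurial, 18 to 22 in endothelial and 11 to 15 in mural cells. For class differences it gave, at P1, 27 to 29 (endoneurial minus epineurial), 20 to 21 (perineurial minus epineurial), 27 to 29 (perineurial minus endoneurial), 29 to 31 (Schwann minus endoneurial) and 15 to 17 (endothelial minus mural), and at P60 23 to 25, 22 to 23, 24 to 28, 23 to 25 and 18 to 21. For age changes it gave 20 to 24 (endoneurial minus epineurial), 18 to 20 (perineurial minus epineurial), 17 to 18 (Schwann minus endoneurial) and 7 to 10 (endothelial minus mural).

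The change of the fibrillar share in endothelial cells reversed to -0.569 points with clusters made at a larger normalization total, -2.65 without the highest Scrublet scores and -5.61 without cells of 10 or more Dcn UMIs, and that of the basement membrane share in mural cells to -3.22 with clusters made at a larger normalization total and ranged from -2.26 to 5.12 with 1 library left out, lowest without P60 replicate 3 and highest without P1 replicate 1; neither share passed a test. The change in immune cells with a Col15a1 UMI was -3.04 points without thinning.

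Single genes reversed as follows, on the log2 scale. In Schwann cells Col6a3 changed by -0.21 with clusters made with collagens, -0.30 with clusters made at a larger normalization total and -0.14 without cells of 10 or more Dcn UMIs, where Col8a1 changed by -1.64 and its difference from endoneurial cells was -0.93. At P1 the perineurial minus epineurial difference of Col15a1 was 0.17 with clusters made at a larger normalization total, and the Schwann minus endoneurial difference of Col5a3 was 0.29 with clusters made with collagens and 0.12 at that larger total. At P60 the endoneurial minus epineurial difference of Col5a2 was -0.0069 when the Cilp-high cluster joined the epineurial class, and the endothelial minus mural difference of Col15a1 was -0.73 without the Ccl21a cluster. The age change of Col4a1 differed between endoneurial and epineurial cells by -0.097, -0.147 and -0.214, and between perineurial and epineurial cells by -0.265, -0.371 and -0.340, with clusters made with collagens, at that larger total and with the Cilp-high cluster, with which the perineurial minus epineurial value of Col12a1 was -0.121. The cause was not tested. The alternatives on the Cilp-high, Ccl21a and high mitochondrial clusters were chosen after seeing the data.

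Scaling by library size moved the median over all genes by -0.108 for the age change in mural cells and, for endoneurial minus epineurial and perineurial minus epineurial at P1, Schwann minus endoneurial at P60 and its age change, by 0.136, 0.152, 0.247 and 0.142, and the share of calls that were higher from 49.0% to 60.6%, 49.8% to 66.8%, 50.7% to 68.5% and 57.5% to 70.1%. DESeq2 moved the median for perineurial minus endoneurial at P60 by -0.115. The deviations of same-numbered libraries of the 2 ages from their group means correlated at -0.0598 to 0.147 over the classes, and in no class was every pair above 0.1, so the numbers were not taken to pair them, although in 5 of 9 classes every library correlated best with its own number. With a replicate block, 20 collagens were called in Schwann, 36 in all fibroblasts, 27 in endoneurial, 29 in perineurial, 26 in epineurial, 21 in endothelial and 13 in mural cells.

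The adult Schwann class, with 442 cells, has the least depth, and a collagen at 0 there could be at up to 2.12 CPM by counting error alone.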

Other observations

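Within the adult classes, clusters that were made without any collagen differed in collagen levels. These are values of 3 libraries with no test, since the clusters come from the same cells. Perineurial cells fell into a cluster of 1962 and one of 468 with more mitochondrial RNA. Col4a4 was near equal in them, at 115 and 105 CPM, whereas Col6a5 was at 74.8 and 2.25 CPM, Col8a1 at 869.9 and 194 CPM and Col15a1 at 7.39 and 54.2 CPM.

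Mural cells parted in their interstitial collagens as well as in type IV. In the cluster with Rgs5 and Kcnj8, Col3a1 was at 1184 CPM and Col6a1 at 351 CPM, and in the cluster with Myh11 they were at 272 and 52.6 CPM. Col4a5 and Col4a6, neighbours on the X chromosome, went the other way.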
